A study of Homo sapiens with 6 samples.

Results

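The genes described here encode the tumour necrosis factor (TNF) ligands and receptors, as transcribed in cells labelled MDA-MB-468. This human line comes from a breast carcinoma without hormone receptors or HER2 amplification and is classed as basal-like. They were chosen by name from a table of 56505 rows: every TNFSF and TNFRSF symbol, plus TNF, LTA, LTB, LTBR, FAS, FASLG, CD40, CD40LG, CD27, CD70, NGFR, EDAR and RELT. This gave 45 genes, 17 for ligands and 28 for receptors. RNA was sequenced in 3 libraries of cells with a short hairpin RNA against KRT5, the gene of cytokeratin 5 (labelled shCK5-22, here shCK5), and in 3 libraries of cells with a control hairpin (shControl). Per the labels, both groups carried their hairpin in the same pLK0 vector, grew in medium with fetal bovine serum and received no other treatment. A single hairpin against KRT5 was used, and the labels do not say whether the cells were a clone or a pool. Nor do they say that replicates were separate cultures, so each p-value reflects only how much these libraries vary.

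TNF ligands are mostly trimeric proteins of the cell surface, some of which are cut off as soluble cytokines, and each binds one or a few receptors of the TNF receptor family. Receptors with a cytoplasmic death domain can recruit adaptors that lead to caspases, whereas most others bind TRAF adaptors and lead to NF-kappaB. Decoy receptors bind a ligand without passing on a full signal. Many ligands of the family are known best from leukocytes, and epithelial tumour cells are known for receptors such as those of TNF and of TRAIL.

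Total gene counts lay between 75460940 and 83594772 in the shCK5 libraries and between 68810882 and 75529699 in the shControl libraries. KRT5, the target of the hairpin, averaged 16.4 ± 0.845 CPM in shCK5 and 2044 ± 23.3 CPM in shControl (SD, n = 3 each). CPM is the count scaled to library depth in the usual way, and errors after ± below are SDs over 3 libraries. Its log2 fold change, shCK5 minus shControl, was -6.96 (SE 0.0369; adjusted p = 1.15e-34, from the quasi-likelihood test of edgeR adjusted by Benjamini-Hochberg). The labelled cell identity did not hold equally for both groups. RB1 and SMAD4, known to be deleted in this line, averaged 101 and 16.9 CPM in shCK5, against 1.996 and 0.235 CPM in shControl. All 8 markers listed for the labelled cells (KRT5, KRT14, KRT17, KRT8, KRT18, EPCAM, CDH1 and EGFR) were lower in shCK5, with a median log2 fold change of -2.77. KRT5 is among them as the target of the hairpin, so its fall says nothing on identity. Of all genes tested, 41.7% were called lower. Whether the groups differ in origin as well as in the hairpin was not tested, and every difference below is one between the libraries as labelled.

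Ligand transcripts were mostly lower and receptor transcripts mostly higher in shCK5. Of the 45 genes, 41 had a count in some library, and 32 passed the filter on low counts and were tested. Of these, 30 passed an adjusted p of 0.05, with 16 higher and 14 lower. Over all 19567 genes tested the share past the threshold was 82.7%, with 40.9% higher and 41.7% lower, so a high share of calls was the rule in this comparison. Differences over 2-fold were called in 10 higher and 10 lower genes of the 32, beside 44.0% of all genes tested in either direction. In 30 of the 32 the ranges of the groups were apart, and this held for 84.2% of all genes tested. Among the 17 ligand genes 11 were tested, and 9 were lower, 1 higher and 1 was not called, with a median log2 fold change of -1.56. Among the 28 receptor genes 21 were tested, and 15 were higher, 5 lower and 1 was not called, with a median of 1.05. The median over all genes tested was -0.02. Summed over ligands, the level was 17.5 to 19.0 CPM in the shCK5 libraries and 42.8 to 48.4 CPM in the shControl libraries. Summed over receptors, it was 1002 to 1018 CPM in shCK5 and 575 to 579.6 CPM in shControl. In bulk libraries of this kind, fewer cells that express a gene and less of its RNA per cell cannot be told apart.

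**Figure D1:**
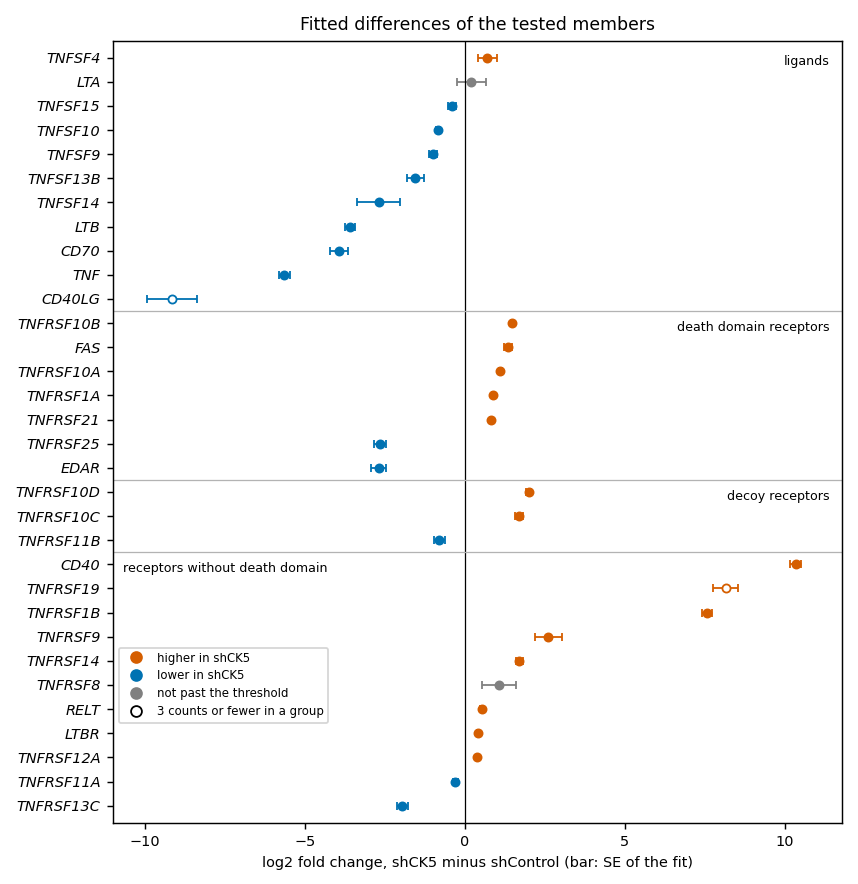
Fitted log2 fold change (shCK5 minus shControl, horizontal axis) of the 32 tested genes, grouped by role, with bars for the SE derived from the test. Orange points are higher and blue points lower in shCK5, grey points did not pass the threshold, and open circles mark genes with 3 counts or fewer in a group; 9 of 11 ligands are blue and 15 of 21 receptors orange.

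TNF, the founding cytokine of the family, had the lowest fold change among ligands with counts in both groups. TNF (ENSG00000232810.3, chromosome 6, 31575567 to 31578336, plus strand, GRCh38) had 0.151, 0.157 and 0.111 CPM in shCK5 replicates 1, 2 and 3, against 7.11, 7.37 and 6.995 CPM in shControl. All 3 shCK5 libraries were far below every shControl library. The mean was 0.140 ± 0.0254 CPM in shCK5 and 7.16 ± 0.192 CPM in shControl, and the log2 fold change was -5.66 (SE 0.173; edgeR adjusted p = 4.32e-20). The pooled counts were 32 in shCK5 and 1620 in shControl, a level 51.1-fold lower (exact 95% interval 36.0 to 74.9, counting error only).

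LTB, which encodes the membrane anchor lymphotoxin-beta, had 0.529, 0.446 and 0.498 CPM in shCK5 and 6.52, 5.29 and 5.96 CPM in shControl. The groups were well apart, and the log2 fold change was -3.59 (SE 0.152; edgeR adjusted p = 4.41e-17). CD70, the ligand of CD27, had 0.126, 0.157 and 0.0830 CPM in shCK5 and 1.99, 1.93 and 1.84 CPM in shControl, and its groups were likewise apart (log2 fold change -3.95, SE 0.278; edgeR adjusted p = 1.72e-12). CD40LG, the ligand of CD40 and best known from helper T cells, had no count in any shCK5 library, against 86, 56 and 70 counts in shControl replicates 1, 2 and 3. With its shCK5 level set to a floor of 3 counts in all, it was at least 71.3-fold lower in shCK5. Its mean in shControl was 0.944 ± 0.228 CPM, so it is described because of its values.

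**Figure D2:**
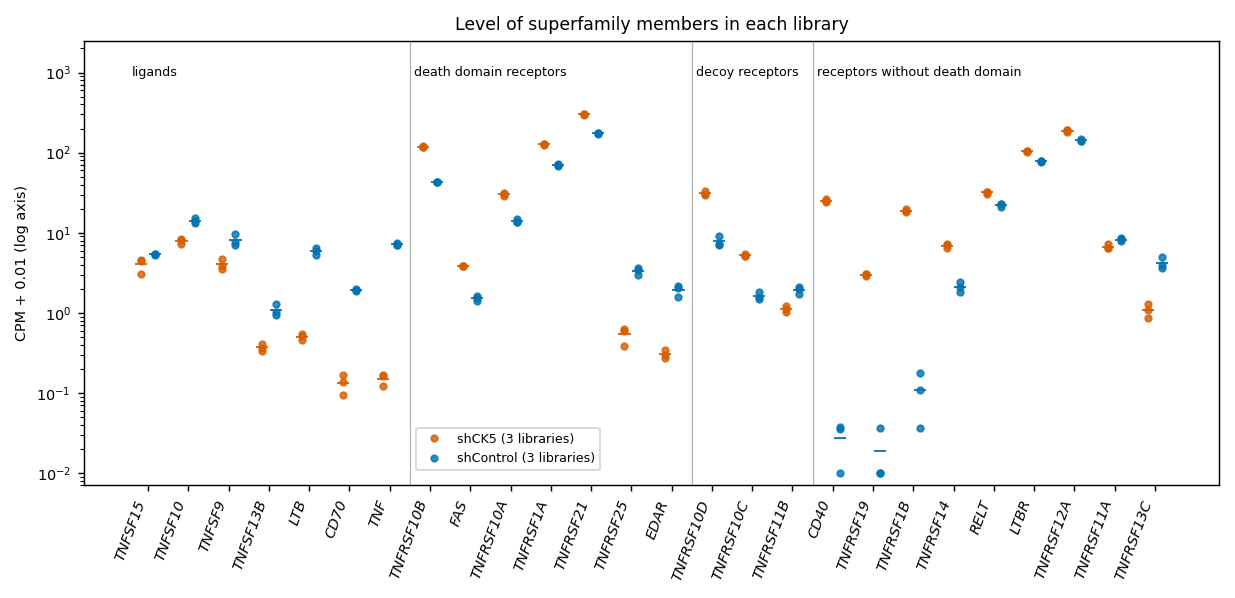
Level of the 26 genes with a mean of at least 1 CPM in either group, in every library, as CPM plus 0.01 on a log axis, grouped by role; orange points on the left of each pair are shCK5 libraries, blue points on the right are shControl libraries, and short bars are group means. The shCK5 points of TNF, CD70 and LTB stand well below their shControl points, and those of CD40, TNFRSF1B and TNFRSF19 well above.

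The sequence just before the start of TNF is shown because of that fall. The 250 bases come from RefSeq (GRCh38.p14, chr6:31575315-31575564, plus strand, 5′ to 3′), and the capitals mark TATAAA, 29 to 24 bases before the RefSeq start.
TNF: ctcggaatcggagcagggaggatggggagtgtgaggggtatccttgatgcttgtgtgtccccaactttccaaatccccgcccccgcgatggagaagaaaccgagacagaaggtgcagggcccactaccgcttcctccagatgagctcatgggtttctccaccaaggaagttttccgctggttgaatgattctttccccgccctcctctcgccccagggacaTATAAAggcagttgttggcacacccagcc
Searched on both strands, TATAAA was present in 10.7% of 35116 RefSeq windows of this length. A core of NF-kappaB sites, GGGA and CC with 4 bases of any kind between them, was in 22.6% of them, and TGANTCA, a core of AP-1 sites, in 6.57%. Neither was in the TNF window. This does not show that TNF lacks such sites, since other forms of them and bases further upstream were not searched. RefSeq windows were matched for 29 of the 45 genes, 39 windows in all. CD40, CD40LG and CD70 were among the genes without one. Some genes had several windows, and those of LTB, TNFSF14, TNFSF13B, LTA and FAS overlap in whole or in part, so counts of windows are not counts of genes. Of these, 14 held the NF-kappaB core, 6 held TGANTCA and 6 held TATAAA. The median ratio of observed to expected CpG was 0.252 over the 19 ligand windows and 0.594 over the 20 receptor windows, against 0.558 over all windows.

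The transcripts of TRAIL, TL1A, BAFF and the 4-1BB ligand fell by smaller amounts. TNFSF10, which encodes TRAIL, a ligand that can start apoptosis, had 8.39, 7.13 and 8.16 CPM in shCK5 and 14, 13.3 and 15.2 CPM in shControl. All shCK5 values were below all shControl values, and the log2 fold change was -0.84 (SE 0.0752; edgeR adjusted p = 1.72e-10). TNFSF9, the 4-1BB ligand known as a T cell costimulator, had 3.88, 4.75 and 3.51 CPM in shCK5 and 9.66, 7.02 and 7.69 CPM in shControl. It was lower without overlap (log2 fold change -1.003, SE 0.116; edgeR adjusted p = 2.04e-08). TNFSF15, which encodes TL1A, had 4.56, 3.04 and 4.48 CPM in shCK5 and 5.45, 5.32 and 5.38 CPM in shControl. Its difference was smaller, and shCK5 replicate 2 was the lowest library (log2 fold change -0.42, SE 0.121; edgeR adjusted p = 0.00283). With 1 library left out the log2 fold change of TNFSF15 lay between -0.51 and -0.24. The highest edgeR adjusted p among the alternatives was 0.0406. TNFSF13B, the B cell survival factor BAFF, had 0.328, 0.393 and 0.360 CPM in shCK5 and 1.28, 1.00 and 0.920 CPM in shControl, again without overlap (log2 fold change -1.56, SE 0.266; edgeR adjusted p = 8.53e-06).

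The other 3 tested ligands stayed below 1 CPM in both groups. TNFSF14, which encodes LIGHT, had 7 counts in shCK5 and 47 in shControl and was lower (log2 fold change -2.70, SE 0.674; edgeR adjusted p = 0.000767), with values of -2.10 without shCK5 replicate 1 and -3.81 without shCK5 replicate 2. TNFSF4, the OX40 ligand, was the 1 ligand called higher: 0.554, 0.813 and 0.995 CPM in shCK5 overlapped 0.349, 0.476 and 0.627 CPM in shControl (log2 fold change 0.70, SE 0.297; edgeR adjusted p = 0.0337). That call was lost without shCK5 replicate 2 or 3 and without shControl replicate 1 or 2. It was also lost with scaling by library size alone and in DESeq2 (adjusted p of 0.0518 to 0.165 over these edgeR and DESeq2 fits). LTA, lymphotoxin-alpha, had 65 counts in shCK5 and 56 in shControl and was not called (log2 fold change 0.20, SE 0.455; edgeR adjusted p = 0.685). Among untested ligands, FASLG had 2 and 10 counts in shCK5 and shControl, TNFSF11 (RANKL) 0 and 4, TNFSF12 (TWEAK) 34 and 18, TNFSF13 (APRIL) 6 and 0, and TNFSF8 10 and 2. On the same strand, 29.4% of the exon bases of TNFSF12 and 55.5% of those of TNFSF13 also belong to the read-through gene TNFSF12-TNFSF13, so their low counts were not read as low levels of transcript. TNFSF18 had no count in any library; a count of 0 allows up to 0.0132 CPM in shCK5 and 0.0133 CPM in shControl over the pooled libraries.

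Receptors with a death domain were measured at higher levels in shCK5 for 5 of the 7 tested. TNFRSF1A, TNF receptor 1, had 128, 128 and 125 CPM in shCK5 and 72.5, 67.3 and 69.8 CPM in shControl. Every shCK5 library exceeded every shControl library (log2 fold change 0.86, SE 0.0315; edgeR adjusted p = 2.10e-18). TNFRSF21, death receptor 6, had 298, 307 and 306 CPM in shCK5 and 175, 175 and 172 CPM in shControl, also without overlap (log2 fold change 0.80, SE 0.0263; edgeR adjusted p = 1.93e-19). FAS, the receptor of the Fas ligand, had 3.804, 3.87 and 3.86 CPM in shCK5 and 1.41, 1.59 and 1.505 CPM in shControl. It rose with little spread inside either group (log2 fold change 1.35, SE 0.131; edgeR adjusted p = 7.64e-10), and 8.93% of its exon bases overlap ACTA2, which lies on the opposite strand. Such overlaps are not particular to FAS. Genes on the opposite strand overlap 13.4% of the exon bases of TNFRSF14, 11.9% for RELT, 8.94% for TNFRSF25 and 6.72% for LTBR. For TNFRSF10A, AC100861.1 overlaps 9.01% and TNFRSF10A-AS1 7.59%.

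Both receptors of TRAIL that carry a death domain rose, and so did both of its membrane decoys. TNFRSF10B, death receptor 5, had 117, 121 and 119 CPM in shCK5 and 42.7, 43.3 and 42.8 CPM in shControl (log2 fold change 1.47, SE 0.0313; edgeR adjusted p = 2.14e-23). TNFRSF10A, death receptor 4, had 30.8, 31.3 and 28.8 CPM in shCK5 and 14.98, 13.6 and 13.6 CPM in shControl (log2 fold change 1.11, SE 0.0535; edgeR adjusted p = 7.00e-16). In both genes the groups were apart by far more than the spread within them. TNFRSF10D, a decoy with a truncated death domain, had 29.8, 30.5 and 32.8 CPM in shCK5 and 7.33, 6.97 and 9.23 CPM in shControl (log2 fold change 1.99, SE 0.0731; edgeR adjusted p = 2.23e-18). TNFRSF10C, a decoy anchored by a lipid, had 5.05, 5.19 and 5.41 CPM in shCK5 and 1.80, 1.48 and 1.59 CPM in shControl (log2 fold change 1.69, SE 0.121; edgeR adjusted p = 2.39e-12). By shared sequence its level is less certain than those of the other TRAIL receptors here, since 31.9% of its stretches of 75 bases also occur in another annotated transcript, mainly AC107959.4. Per kilobase of exon, the decoys made up 25.1% to 27.0% of the level of these 4 receptors in shCK5 libraries and 17.5% to 21.1% in shControl libraries. Those ranges did not overlap.

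The soluble decoy TNFRSF11B and the death domain receptors TNFRSF25 and EDAR were lower in shCK5. TNFRSF11B, osteoprotegerin, which binds RANKL and TRAIL, had 1.01, 1.21 and 1.11 CPM in shCK5 and 1.72, 1.98 and 2.12 CPM in shControl (log2 fold change -0.81, SE 0.175; edgeR adjusted p = 0.000172). TNFRSF25, death receptor 3 and the receptor of TL1A, had 0.378, 0.590 and 0.622 CPM in shCK5 and 2.99, 3.46 and 3.61 CPM in shControl (log2 fold change -2.66, SE 0.188; edgeR adjusted p = 1.70e-12). EDAR, the ectodysplasin receptor of hair and gland development, had 0.265, 0.289 and 0.332 CPM in shCK5 and 2.17, 1.58 and 2.01 CPM in shControl (log2 fold change -2.70, SE 0.239; edgeR adjusted p = 1.56e-10). All 3 were without overlap between groups. NGFR, the p75 neurotrophin receptor, was not tested, with 28 counts in shCK5 and 10 in shControl. TNFRSF6B, the decoy of the Fas ligand, had no count; all of its exon bases also belong to the read-through gene RTEL1-TNFRSF6B, so its 0 was not read as lack of transcript.

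Among receptors without a death domain, CD40, TNFRSF19 and TNFRSF1B had the highest fold changes. CD40 (ENSG00000101017.13, chromosome 20, 46118272 to 46129863, plus strand), a receptor known from B cells, antigen-presenting cells and epithelium, had 24.0, 26.1 and 25.2 CPM in shCK5, against 0, 0.0251 and 0.0279 CPM in shControl. The shControl values rest on 0, 2 and 2 counts, and the shCK5 values on 1906, 1990 and 1820. The log2 fold change of 10.34 was the highest of the 32 tested genes (SE 0.172; edgeR adjusted p = 1.29e-25), and the ratio of pooled levels was 1417 (exact 95% interval 553 to 5202). TNFRSF1B (ENSG00000028137.18, chromosome 1, 12167003 to 12209228, plus strand), TNF receptor 2, had 19.7, 18.5 and 18.0 CPM in shCK5 and 0.0268, 0.100 and 0.167 CPM in shControl. Its shCK5 values were all far above its shControl values, which rest on 2, 8 and 12 counts (log2 fold change 7.56, SE 0.163; edgeR adjusted p = 3.03e-23; pooled ratio 193, exact 95% interval 127 to 308). TNFRSF19, known as TROY, had 3.07, 2.86 and 3.04 CPM in shCK5 and 0.0268, 0 and 0 CPM in shControl, from 682 and 2 counts (pooled ratio 338, exact 95% interval 93.2 to 2797). Its fitted log2 fold change of 8.15 became 10.83 without shControl replicate 1, the library that held its 2 counts.

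The windows before the starts of TNFRSF1B and TNFRSF21 are shown as a pair, since both receptors were higher in shCK5, the first with shControl levels of at most 0.167 CPM and the second with high levels in both groups. Both come from RefSeq (GRCh38.p14, 5′ to 3′): chr1:12166741-12166990 on the plus strand for TNFRSF1B and chr6:47309906-47310155 on the minus strand for TNFRSF21. Capitals mark a match to the NF-kappaB core described above, read on either strand.
TNFRSF1B: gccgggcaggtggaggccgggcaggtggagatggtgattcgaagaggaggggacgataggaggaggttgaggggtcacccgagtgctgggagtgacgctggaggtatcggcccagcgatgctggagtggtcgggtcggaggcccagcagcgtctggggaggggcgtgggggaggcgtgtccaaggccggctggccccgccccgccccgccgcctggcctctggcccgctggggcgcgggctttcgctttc
TNFRSF21: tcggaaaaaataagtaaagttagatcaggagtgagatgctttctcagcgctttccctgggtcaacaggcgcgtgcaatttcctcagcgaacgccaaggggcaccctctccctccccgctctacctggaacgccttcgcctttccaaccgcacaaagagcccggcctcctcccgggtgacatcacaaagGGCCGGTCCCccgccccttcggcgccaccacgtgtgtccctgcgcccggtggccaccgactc
The TNFRSF1B window held none of the NF-kappaB core, TGANTCA and TATAAA, and its GC content was 72.4%. The TNFRSF21 window held 1 match to the NF-kappaB core, 62 to 53 bases before the start, and its GC content was 62.0%.

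The other receptors without a death domain moved by smaller amounts. TNFRSF14, the receptor known as HVEM, had 6.54, 6.95 and 7.20 CPM in shCK5 and 1.83, 2.41 and 2.10 CPM in shControl, clearly apart (log2 fold change 1.70, SE 0.113; edgeR adjusted p = 4.62e-13). LTBR, the lymphotoxin-beta receptor, had 106, 104 and 102 CPM in shCK5 and 79.2, 75.7 and 78.3 CPM in shControl (log2 fold change 0.42, SE 0.0310; edgeR adjusted p = 4.87e-12). TNFRSF12A, the TWEAK receptor Fn14, had 189.7, 189.9 and 183 CPM in shCK5 and 140.2, 148 and 141 CPM in shControl (log2 fold change 0.39, SE 0.0294; edgeR adjusted p = 6.85e-12). Both of these abundant receptors were modestly higher without overlap. RELT had 30.7, 32.7 and 32.1 CPM in shCK5 and 22.6, 21.0 and 22.8 CPM in shControl (log2 fold change 0.53, SE 0.0474; edgeR adjusted p = 2.03e-10). TNFRSF11A, the receptor of RANKL, had 6.42, 7.16 and 6.44 CPM in shCK5 and 7.85, 8.50 and 8.33 CPM in shControl (log2 fold change -0.30, SE 0.0801; edgeR adjusted p = 0.00136). TNFRSF13C, the BAFF receptor, had 1.07, 1.27 and 0.857 CPM in shCK5 and 4.91, 3.598 and 3.97 CPM in shControl (log2 fold change -1.96, SE 0.161; edgeR adjusted p = 3.67e-11). These last 2 were the receptors without a death domain that fell, and neither overlapped between groups.

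The 2 remaining tested receptors had levels below 1 CPM. TNFRSF9, the receptor 4-1BB, rose, with 124 counts in shCK5 and 20 in shControl (log2 fold change 2.61, SE 0.433; edgeR adjusted p = 6.00e-06). TNFRSF8, known as CD30, had 42 counts in shCK5 and 20 in shControl. It was not called (log2 fold change 1.05, SE 0.532; edgeR adjusted p = 0.0707), although the groups did not overlap, and was called without shControl replicate 2 (1.72; edgeR adjusted p = 0.0255). Of the untested receptors, TNFRSF18 (GITR) had 28 counts in shCK5 and none in shControl, at least 9.25-fold higher against the floor of 3 counts, TNFRSF4 (OX40) had 4 in shCK5 and 6 in shControl, and TNFRSF13B (TACI) 1 in shCK5 and 6 in shControl. CD27 and TNFRSF17 had no count in any library. Of the exon bases of CD27, 37.0% overlap CD27-AS1 on the opposite strand, and reads from there could not be separated.

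Compared per kilobase of exon, so that genes of different length can be set side by side, TNFRSF12A and TNFRSF21 had the highest levels of all 45 genes in both groups. TNFRSF12A stood at 101 ± 2.13 CPM per kilobase in shCK5 and 77.5 ± 2.46 in shControl, and TNFRSF21 at 84.4 ± 1.36 in shCK5 and 48.4 ± 0.450 in shControl. TNFRSF1A was next at 31.7 ± 0.379 CPM per kilobase in shCK5 and 17.5 ± 0.645 in shControl, and each gap in this order exceeded the SDs. TNFRSF10B, at 23.1 ± 0.323 CPM per kilobase in shCK5 and 8.32 ± 0.0621 in shControl, stood above LTBR (16.5 ± 0.347) in shCK5 but below LTBR (12.4 ± 0.290) in shControl. These 5 receptors made up 84.6% to 85.0% of the receptor sum per kilobase in shCK5 and 90.8% to 91.6% in shControl. CD40 ranked 7 of 45 in shCK5, at 9.93 ± 0.414 CPM per kilobase, and 36 in shControl, at 0.00698 ± 0.00607. TNF ranked 28 in shCK5, at 0.0834 ± 0.0152 CPM per kilobase, and 8 in shControl, at 4.27 ± 0.115. Of the summed level of both TNF receptors, TNFRSF1B held 13.3% to 14.1% in shCK5 libraries and 0.0394% to 0.254% in shControl libraries. The summed receptors exceeded the summed ligands by 47.6 to 49.3 times per kilobase in shCK5 and by 8.23 to 9.64 times in shControl.

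Fewer ligands had their receptor beside them in shCK5 than in shControl. From textbook knowledge 31 pairs of a ligand and its receptor were listed, and a gene was counted as present at a group mean of at least 1 CPM. Both partners were present in 5 pairs in shCK5 and in 9 pairs in shControl. These numbers depend on the cut, since some genes lay close to it. In shControl TNFSF13B averaged 1.07 CPM and CD40LG 0.944 CPM. In shCK5 TNFRSF11B averaged 1.11 CPM and TNFRSF13C 1.07 CPM. The 5 pairs in shCK5 were TNFSF10 with each of its 5 receptors, and these were also among the 9 of shControl. The other 4 of shControl were TNF with TNFRSF1A, LTB with LTBR, TNFSF13B with TNFRSF13C, and TNFSF15 with TNFRSF25. The receptor alone was present in 13 pairs in shCK5 and in 7 in shControl, and the ligand alone in 3 in shCK5 and in 6 in shControl. TNFSF15 with TNFRSF6B is 1 of these in either group, although the level of TNFRSF6B could not be read. The counts of CD27, TNFSF12 and TNFSF13 carry the limits given above. In the pair of CD40LG and CD40 neither partner reached 1 CPM in shControl, and in shCK5 only CD40 did, at 25.1 ± 1.05 CPM. These counts rest on RNA from bulk libraries and do not measure binding.

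Many of these genes are neighbours in the genome: 24 of the 45 lie in 9 runs with gaps of at most 500 kilobases (GENCODE 29, GRCh38). On chromosome 6, LTA, TNF and LTB follow each other with gaps of 1.2 and 2.2 kilobases, and TNF and LTB were lower while LTA was not called. On chromosome 19, TNFSF9 (6530999 to 6535928), CD70 (6583183 to 6604103) and TNFSF14 (6661253 to 6670588) were all lower. On chromosome 8, TNFRSF10B, TNFRSF10C, TNFRSF10D and TNFRSF10A, which span 23020133 to 23225126, were all higher. On chromosome 12, TNFRSF1A and LTBR, 32.9 kilobases apart, were both higher, and CD27 next to them had no count. TNFRSF1B, with its log2 fold change of 7.56, lies 22.8 kilobases from TNFRSF8 on chromosome 1, which was not called. With 40.9% of all tested genes called higher and 41.7% lower, neighbours of one direction are common in this comparison, and nothing particular to these runs was tested.

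**Figure D3:**
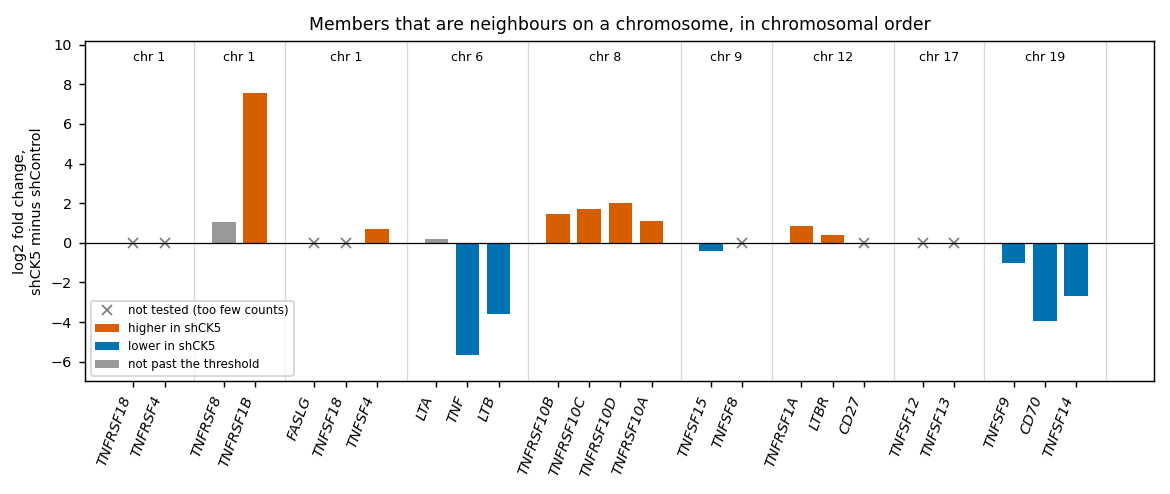
Fitted log2 fold change (shCK5 minus shControl, vertical axis) of the 24 genes that lie in runs of neighbours, in chromosomal order; orange bars are higher and blue bars lower in shCK5, grey bars were not called and crosses were not tested. The 4 TRAIL receptor genes on chromosome 8 all point up and the 3 ligand genes on chromosome 19 all point down.

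Genes that act just below these receptors changed in both directions. Over all genes tested 82.7% were called, with 40.9% higher and 41.7% lower. The counts in this list and in those below are to be read beside these shares. Of 26 adaptors, kinases and ubiquitin enzymes of receptor signalling, all tested, 14 rose, 11 fell and 1 was not called (median log2 fold change 0.30). TRAF1, an adaptor that is itself induced by NF-kappaB, averaged 22.6 ± 0.414 CPM in shCK5 and 2.17 ± 0.373 CPM in shControl, and its log2 fold change was 3.38 (SE 0.0862). BIRC3, the ubiquitin ligase cIAP2, averaged 92.8 ± 3.53 CPM in shCK5 and 13.0 ± 0.785 CPM in shControl (2.83, SE 0.0449). MAP3K14, the kinase NIK of the non-canonical NF-kappaB pathway, averaged 71.6 ± 1.51 CPM in shCK5 and 14.7 ± 0.529 CPM in shControl (2.29, SE 0.0416). TRAF6 had a log2 fold change of -1.14 (SE 0.0482), TNFAIP3, the inhibitor A20, of -1.06 (SE 0.0625) and TRAF4 of -0.80 (SE 0.0337). The highest edgeR adjusted p among these 6 genes was 4.51e-14, for TNFAIP3.

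Of 10 NF-kappaB subunits and inhibitors, 5 rose and 5 fell (median log2 fold change -0.09). The precursor of p52, NFKB2, averaged 146 ± 3.16 CPM in shCK5 and 52.3 ± 1.57 CPM in shControl (log2 fold change 1.48, SE 0.0318). The inhibitor NFKBIE rose by 1.27 (SE 0.0455) and the precursor NFKB1 by 0.57 (SE 0.0359). The inhibitors NFKBIB and NFKBIZ had log2 fold changes of -1.44 (SE 0.0328) and -1.22 (SE 0.0462), and the subunit REL of -0.99 (SE 0.0745). Of 20 known NF-kappaB target genes 15 were tested, and 6 rose, 8 fell and 1 was not called (median -0.89). ICAM1, an adhesion molecule, averaged 6.604 ± 0.734 CPM in shCK5 and 99.9 ± 1.67 CPM in shControl (-3.92, SE 0.0519). LCN2, lipocalin, averaged 7.47 ± 0.558 CPM in shCK5 and 97.4 ± 1.05 CPM in shControl (-3.71, SE 0.0463), and the chemokine CCL2 had 8 counts in shCK5 and 590 in shControl (-6.16, SE 0.352). The interleukin genes IL1A, IL32 and IL1B rose by 2.80 (SE 0.327), 1.84 (SE 0.0866) and 1.58 (SE 0.261).

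Death effectors moved in both directions. Of 12 listed, 10 were tested, and 4 rose, 5 fell and 1 was not called, with a median log2 fold change of -0.04. CASP10, an initiator caspase that binds FADD, averaged 4.72 ± 0.591 CPM in shCK5 and 35.4 ± 0.423 CPM in shControl (log2 fold change -2.91, SE 0.0666; edgeR adjusted p = 1.00e-22). The BH3-only gene BID had -1.26 (SE 0.0323), and CFLAR, the inhibitor FLIP, -0.60 (SE 0.0367). MLKL, the effector of necroptosis, rose by 0.43 (SE 0.0569). Of 8 genes that take part in or limit the release of ligands and receptors from the surface, 7 were tested, and 4 rose and 3 fell (median 0.27). The protease genes ADAM10 and SPPL2B and the cofactor RHBDF1 rose by 1.05 (SE 0.0270), 0.62 (SE 0.0433) and 0.54 (SE 0.0422), and ADAM17, the main protease of TNF shedding, RHBDF2 and FRMD8 had -0.23 (SE 0.0430), -0.40 (SE 0.0302) and -0.37 (SE 0.0369).

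Partners of the p75 receptor and of TROY differed between groups while NGFR itself had too few counts to test. Of 15 listed, 10 were tested, and 4 rose and 6 fell (median log2 fold change -0.42). BEX3, which binds the p75 receptor, averaged 86.4 ± 1.81 CPM in shCK5 from 19706 counts and had 2 counts in shControl. NTF3, a neurotrophin, averaged 1.93 ± 0.0176 CPM in shCK5 and had no count in shControl, and MAGED1, another partner of the p75 receptor, rose by 2.78 (SE 0.0451). NTRK2, a neurotrophin receptor, SORCS2, a coreceptor of p75, and RTN4R, the Nogo receptor with which TROY can pair, had log2 fold changes of -4.71 (SE 0.445), -2.20 (SE 0.0616) and -2.59 (SE 0.0740). Of 5 further genes of the superfamily or its adaptors that the naming rule does not reach, 4 were tested, and 2 rose and 2 fell. EDA, the ligand of EDAR, and RELL1, a RELT homologue, rose by 0.70 (SE 0.242) and 0.64 (SE 0.0863), whereas EDARADD, the adaptor of EDAR, had -3.32 (SE 0.242) and RELL2 -0.69 (SE 0.0870).

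**Figure D4:**
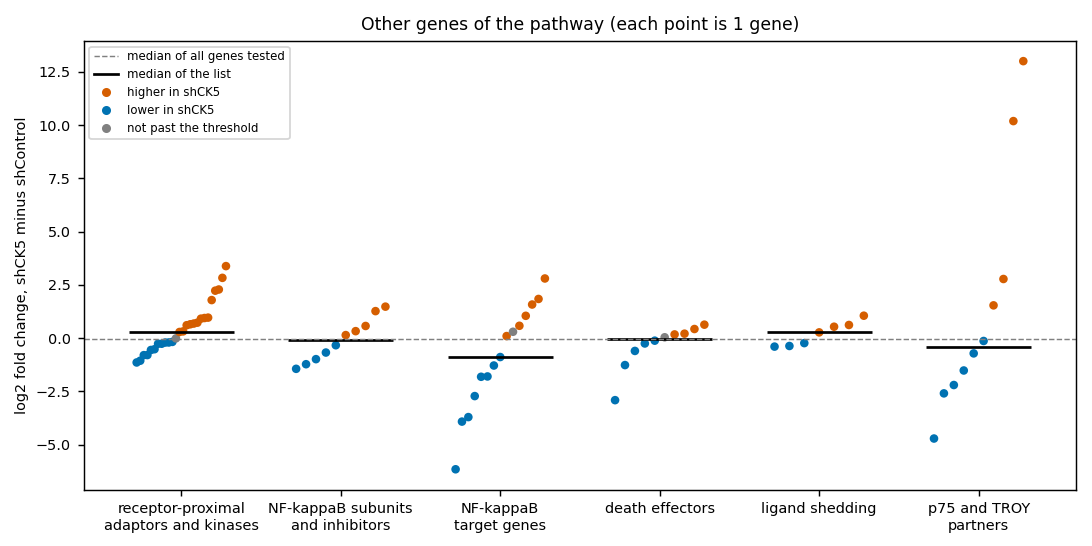
Fitted log2 fold change (shCK5 minus shControl) of the tested genes of 6 other lists, 1 point per gene, orange where higher in shCK5, blue where lower and grey where not called, with a thick line at the list's median and a dashed line at the median of all genes tested. Each list has points on both sides of 0, and the list medians lie between -0.89 and 0.30.

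Leukocyte markers, from cells in which many of these ligands are known, were mostly at low levels. Of the 16 listed, 3 averaged at least 1 CPM in either group. The 16 listed markers summed to 5.74 to 7.29 CPM in shCK5 libraries and to 17.8 to 20.5 CPM in shControl libraries; 7 were tested, of which 2 were higher and 4 lower. CD3D, MS4A1, CD68 and NKG7 had no count in any library. PTPRC, which encodes the common leukocyte antigen CD45, averaged 0.0623 CPM in shCK5 and 0.697 CPM in shControl. The T cell coreceptor gene CD8A averaged 2.66 CPM in shCK5 and 0.573 CPM in shControl. CSF1R, a receptor of macrophages, averaged 1.85 CPM in shCK5 and 11.6 CPM in shControl, and CD14 0.798 and 5.02 CPM. Beside these, the shControl means of TNF, LTB, CD70 and CD40LG were 7.16, 5.93, 1.92 and 0.944 CPM. The part of the leukocyte markers in the lower levels of these 4 ligands in shCK5 was not tested.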

How the data were processed

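RNA sequencing gave 6 libraries, grouped by their titles. The authors deposited raw gene counts, whole numbers with no normalization, in a table of 56505 rows and 6 columns matched to libraries by name. Per the submitters' processing notes, cutadapt, STAR, SAMtools and Cufflinks were used on GRCh38; the sources used here do not name the counting program, its strand setting or the annotation, so a gene's reads cannot be separated from those of an overlapping or antisense partner. Per the file headers, counts came from sorted alignments. Of counts above 20, 63.1% to 65.0% were even, so both mates of a fragment may have been counted, and count intervals are then too narrow; reads carry no molecular identifiers, so intervals and floors cover counting error only.

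Counts were filtered with filterByExpr, scaled with TMM and tested in R 4.3.3 with edgeR 4.0.16 (glmQLFit and glmQLFTest, no covariate), with Benjamini-Hochberg adjustment over the 19567 genes tested and a threshold of 0.05. TMM factors were 0.950 to 0.959 in shCK5 and 1.04 to 1.06 in shControl. CPM is the count over the TMM-scaled library size. The SE is the absolute log2 fold change over the square root of the quasi-likelihood F, not the standard error of a fitted coefficient. DESeq2 gave larger SEs for genes with few counts in a group. Its SE was 0.725 for CD40 and 0.318 for TNFRSF1B, against 0.172 and 0.163 here. A group at 0 was set to a floor of 3 counts over its 3 libraries. Pooled ratios carry exact conditional binomial 95% intervals. Positions and exon lengths are from GENCODE 29, promoters from RefSeq. The main edgeR fit was tested on simulated counts, and the alternatives were not. Genes with a mean of at least 1 CPM in either group were given per library; of each other list, up to 3 genes at either end among those called. Some genes that this rule names are not reported here. The members and lists were chosen with earlier results of these data known. Alternatives were DESeq2 1.42.0, library size alone, other filters, a replicate block, halved counts and each library left out. In 27 rows a gene name had become a date, and none was used.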

Additional observations from a re-analysis of the deposited data

How the results depend on the processing

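The number of TNF family genes called stayed within 25 to 31 under the alternatives run, while the number tested moved with the filter. The main test called 30 of 32. DESeq2 and library size alone each called 29, the stricter filter (at least 1 CPM in at least 3 libraries) 25 of 25 tested, no filter 31 of 41 and halved counts 29 of 30, and leaving out 1 library gave 29 to 31. Over all genes the count was 16177, with 15771 in DESeq2, 16285 with library size alone, 17100 with no filter, 13372 with the stricter filter, 15457 with halved counts and 16064 to 16177 with 1 library left out. Higher genes made up 49.5% of all calls, and 44.0% with library size alone, where the median over all genes was -0.156 (log2). The direction turned round for LTA alone among the tested genes, at -0.0652 without shControl replicate 2 and -0.0743 without shControl replicate 3, beside an uncalled 0.20 with all libraries and 0.97 without shControl replicate 1; the cause was not tested. Same-numbered libraries of the groups did not deviate together (correlations of 5.75e-05, -0.0105 and -0.0045), so the numbers do not pair them. With the replicate number as a block, 15926 genes and 30 family genes were called, and the same 30 family genes were shared with the main test.

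Precision is limited for genes below 1 CPM and for folds against shControl levels of a few counts, as for CD40 and TNFRSF19. No count can be given here for reads shared with overlapping genes.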

Other observations

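Markers of other tissue cells did not move in a single direction beside the TNF family genes. Of 10 endothelial markers 8 were tested, and 4 were higher and 4 lower in shCK5, beside 40.9% higher and 41.7% lower among all genes tested. ESAM, an endothelial adhesion molecule, averaged 118 ± 3.97 CPM in shCK5 and 1.31 ± 0.243 CPM in shControl and made up most of the list's sum in shCK5. The sum was 120 to 129 CPM in shCK5 libraries and 6.82 to 8.75 CPM in shControl libraries. CDH5, which encodes the cadherin that defines endothelium, averaged 0.0348 CPM in shCK5 and 1.30 CPM in shControl. Of 10 fibroblast markers 3 were tested, with 1 higher and 2 lower in shCK5; their sum was 12.3 to 14.4 CPM in shCK5 libraries and 19.2 to 20.2 CPM in shControl libraries, and THY1 and POSTN had no count in any library. The part of these markers in the differences of the TNF family genes was not tested.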
